A study of Mus musculus with 23 samples.

Results

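The subject is the set of messenger RNAs that brown adipose tissue (BAT) transcribes from the mitochondrial genome rather than from the nucleus. The members were picked by symbol, as 10 named genes of the mitochondrial genome. Of these 10 genes, 7 had a row among the 14651 genes of the count table: mt-Nd1, mt-Nd2, mt-Nd4, mt-Nd5, mt-Nd6, mt-Cytb and mt-Co1. The other members, mt-Co2, mt-Co3 and mt-Atp6, were not analysed here. All values below therefore describe 7 of the 10 mRNAs.

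BAT came from 23 male C57BL/6 mice aged 8 to 12 weeks. All carried Mcu[fl/fl], a floxed allele of Mcu, the pore-forming subunit of the mitochondrial calcium uniporter, with loxP sites around exon 2. Control mice had no Cre, and BAT-Mcu-KO mice (Mcu[fl/fl];Ucp1-Cre) carried a Cre transgene under the Ucp1 promoter, which is active in brown adipocytes, so other cells of the tissue kept Mcu. Each genotype was kept at room temperature (RT) or exposed to 4 °C for 6 h, without food in the cold, which gave 6 control mice at RT, 5 control mice at 4 °C, 6 BAT-Mcu-KO mice at RT and 6 BAT-Mcu-KO mice at 4 °C. Mice in the cold were also housed singly, in cages without bedding. Whether the RT mice had food, bedding or cage mates over the same 6 h is not stated. If they did, cold and the loss of these cannot be told apart.

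The mitochondrial genome is a small circle of DNA held in many copies per cell. Both of its strands are transcribed from end to end, and the long transcripts are cut, largely at the tRNAs that punctuate them, into rRNAs, tRNAs and mRNAs. The mRNAs encode hydrophobic core subunits of the respiratory chain and of ATP synthase, which assemble with subunits imported from the cytosol. Brown adipocytes are packed with mitochondria, whose respiration is uncoupled by UCP1 to release heat.

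The members are ordered by complex in what follows. mt-Nd1, mt-Nd2, mt-Nd4, mt-Nd5 and mt-Nd6 encode membrane subunits of complex I, the NADH dehydrogenase. mt-Cytb encodes cytochrome b, the core of complex III, and mt-Co1 encodes the catalytic subunit of cytochrome c oxidase, complex IV. Of the genes not analysed here, mt-Co2 and mt-Co3 belong to complex IV and mt-Atp6 to ATP synthase. In the GENCODE M21 annotation of GRCm38, the same assembly as mm10, the measured genes lie at chrM:2751-3707 (mt-Nd1), chrM:3914-4951 (mt-Nd2), chrM:5328-6872 (mt-Co1), chrM:10167-11544 (mt-Nd4), chrM:11742-13565 (mt-Nd5), chrM:13552-14070 (mt-Nd6) and chrM:14145-15288 (mt-Cytb). mt-Nd6 is the only one of the 7 on the minus strand.

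Which part of a mitochondrial mRNA can be counted depends on its sequence. A near-perfect nuclear copy of part of the mitochondrial genome lies on chromosome 1, minus strand, at chr1:24611535-24616197, where it is annotated as 7 unprocessed pseudogenes. Reads of 25 nt were kept only where they mapped uniquely, so a read inside an identical stretch has 2 places to go. The sequences below, taken from the GENCODE M21 transcripts and written 5′ to 3′, show how alike the copies are. The first pair gives bases 1 to 50 of mt-Co2, a member without a row, and of its nuclear copy Gm28661, which is identical over all 681 of its bases.
mt-Co2: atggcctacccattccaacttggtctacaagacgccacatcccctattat
Gm28661: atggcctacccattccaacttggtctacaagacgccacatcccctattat

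The copies Gm28437 of mt-Co3 (783 bases) and Gm10925 of mt-Atp6 (678 bases) were likewise identical to the mitochondrial gene. The next pair gives bases 1 to 50 of mt-Nd3, a complex I gene outside the 10 members, and of its copy Gm28438, with the only difference over 345 aligned bases in capitals (T3C, counted from 1 at the first base of mt-Nd3, mitochondrial base first).
mt-Nd3: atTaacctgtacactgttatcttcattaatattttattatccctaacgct
Gm28438: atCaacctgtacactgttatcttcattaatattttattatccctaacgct

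The chromosome 1 copy holds only part of mt-Co1 and mt-Nd4, which do have rows. Gm29216 matches mt-Co1 from base 1054 to its last base, 1545, with 6 differences in 492 bases, all inside the window of 50 bases printed here and shown in capitals.
mt-Co1: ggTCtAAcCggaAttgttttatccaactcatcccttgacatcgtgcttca
Gm29216: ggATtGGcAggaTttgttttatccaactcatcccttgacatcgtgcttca

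Gm28439 is identical to bases 1 to 876 of mt-Nd4 and ends there. Bases 852 to 901 of mt-Nd4 are given with those past the end of the copy in capitals.
mt-Nd4: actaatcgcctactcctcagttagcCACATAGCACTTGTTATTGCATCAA

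Counted over every stretch of 25 bases, the share also found in an annotated transcript outside the mitochondrial genome, on either strand, was 0% for mt-Nd1, 13.0% for mt-Cytb, 14.9% for mt-Nd6, 18.2% for mt-Nd2 and 21.3% for mt-Nd5. It was 62.9% for mt-Nd4 and 69.7% for mt-Co1. Of the 1060 shared stretches of mt-Co1, 455 lay in Gm29216 and 817 in Gm13340, another unprocessed pseudogene at chr2:22588103-22589647 (minus strand), whose matches were spread over bases 1 to 1545; a stretch can lie in both. The row of Gm13340 held 1024 to 1924 normalized counts over all mice. For the 3 members that were not analysed here the share was 100% (mt-Co2), 99.9% (mt-Co3) and 99.5% (mt-Atp6). The rows of the 7 chromosome 1 pseudogenes held few reads: their normalized counts ran from 4.85 (Gm28438) to 212 (Gm10925) over all mice, while the lowest normalized count of any measured member in any mouse was 9826 (mt-Nd6).

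A last pair shows where 2 members meet. mt-Nd5 and mt-Nd6 are transcribed towards each other and share 14 bases on opposite strands, shown in capitals at the 3′ end of each gene (bases 1785 to 1824 of mt-Nd5 and 480 to 519 of mt-Nd6). Counting ignored the strand, so reads of mt-Nd6 and of antisense RNA across it cannot be told apart.
mt-Nd5: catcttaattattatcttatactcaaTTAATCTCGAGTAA
mt-Nd6: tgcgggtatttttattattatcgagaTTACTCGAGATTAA

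The libraries held 7129271 to 21006347 counted reads. Values are counts divided by the DESeq2 size factor of each library, called normalized counts below. Ucp1 was higher at 4 °C in every mouse than in any mouse of the same genotype at RT, and all 6 brown adipocyte markers had reads in every mouse. Mcu, the targeted gene, had median normalized counts of 107 (RT) and 118 (4 °C) in control mice against 38.1 (RT) and 36.3 (4 °C) in BAT-Mcu-KO mice, and the genotypes did not overlap. A sum of 10 skeletal muscle markers ran from 7.47 to 61830 between mice, and 9 of the 10 were each at 0 in some mouse of the 23. One library stood apart in the members themselves: control RT replicate 2 had the lowest normalized count of all 23 mice in each of the 7. The values it moves most are also given without it, a setting chosen for the spreads and percentages after seeing the data.

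The 7 mRNAs together took between 9.70% and 18.3% of all counted reads of a library. In control mice at RT the share had a lowest value of 9.70%, a median of 15.8% and a highest value of 18.3%, and averaged 15.4% ± 3.10 (SD, n = 6). Without replicate 2 the mean was 16.5%. In control mice at 4 °C the shares were 17.2%, 15.8%, 14.9%, 17.3% and 13.5% (mean 15.7% ± 1.62, n = 5), so the control groups overlapped. BAT-Mcu-KO mice at RT were tightly grouped, from 14.6% through a median of 15.2% to 15.6% (mean 15.1% ± 0.376, n = 6). At 4 °C they ran from 16.03% through 17.0% to 17.9% (mean 16.9% ± 0.755, n = 6), and all 6 lay above the 6 at RT. The share is a sum over members and was given no test. In bulk tissue, more cells of a type and more RNA per cell cannot be told apart.

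**Figure D1:**
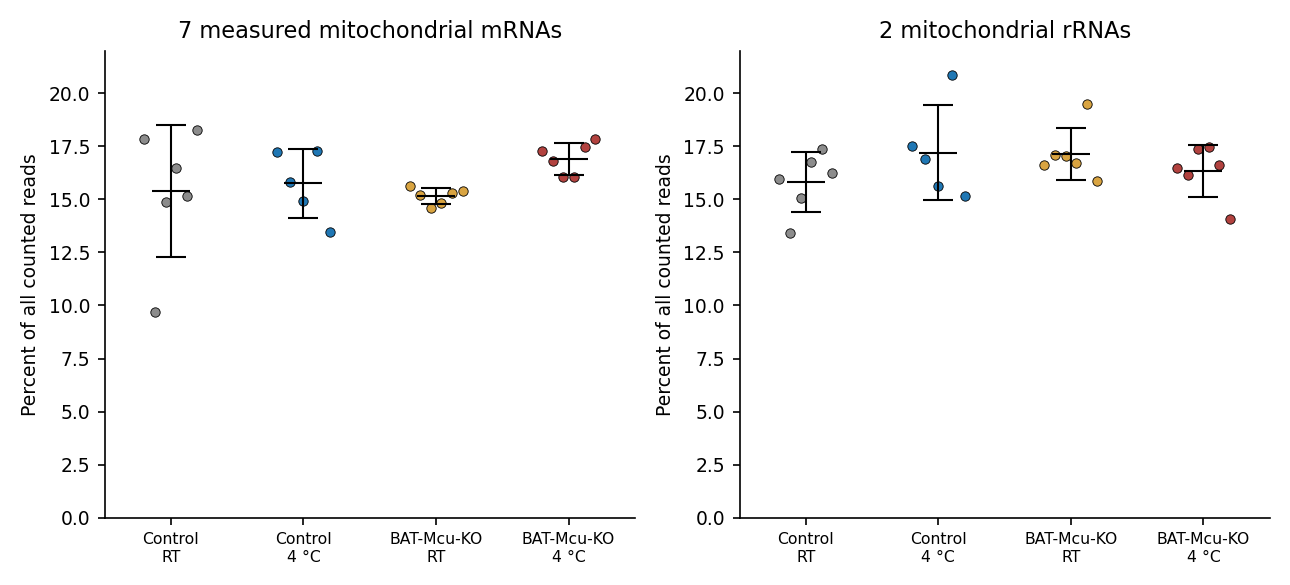
Percent of all counted reads taken by the 7 measured mitochondrial mRNAs (left) and by the 2 mitochondrial rRNAs (right). Each point is 1 mouse, and the bars give the mean and SD of each group; control replicate 2 at RT is the low point at 9.70% on the left, and the BAT-Mcu-KO groups do not overlap there.

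The rRNAs of the same genome were set beside the mRNAs. In BAT-Mcu-KO mice the 2 rRNAs, mt-Rnr1 and mt-Rnr2, the small and large rRNA of the mitochondrial ribosome, took 17.1% ± 1.24 of reads at RT and 16.3% ± 1.23 at 4 °C (n = 6 each). In control mice they took 15.8% ± 1.40 at RT (n = 6) and 17.2% ± 2.24 at 4 °C (n = 5). The reads of the 7 mRNAs per rRNA read were 0.887 ± 0.0653 at RT and 1.04 ± 0.127 in the cold for BAT-Mcu-KO mice, and 0.967 ± 0.153 and 0.919 ± 0.0611 in control mice. These ratios overlap between temperatures within each genotype. All 23 mitochondrial rows together took 23.1% to 38.1% of a library.

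Per kilobase of gene length, mt-Nd1 had the highest level of the 7 in control mice at RT, with 574987 ± 141100 normalized counts per kb (n = 6). mt-Co1 followed with 344918 ± 60919 and mt-Cytb with 307101 ± 98067, and the ranges of these neighbours overlapped between mice. Within a mouse, mt-Nd1 reads were at least 0.868 of mt-Co1 reads, on 957 against 1545 bases. mt-Nd1 was therefore above mt-Co1 per kb of gene length in every mouse of this group. mt-Nd2, mt-Nd5 and mt-Nd4 formed a lower group at 124349 ± 37584, 120847 ± 36504 and 115462 ± 26180 per kb, again with overlapping ranges. mt-Nd6, the minus-strand member, was lowest at 28695 ± 6463 per kb, and its highest mouse (34929) was below the lowest mouse of mt-Nd4 (75038). The same order of mt-Nd1, mt-Co1 and mt-Cytb at the top and mt-Nd4 and mt-Nd6 at the bottom was found in all 4 groups, while mt-Nd5 lay above mt-Nd2 at 4 °C and below it at RT in both genotypes.

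This order changed when only sequence found in no annotated nuclear transcript was used as the length. Divided by the number of 25-base stretches found in no annotated nuclear transcript, mt-Co1 led with 1155960 ± 204165 per kb in control mice at RT, mt-Nd1 came next with 589778 ± 144730 and mt-Nd4 had 316946 ± 71865, beside mt-Cytb at 360701 ± 115184. mt-Nd3, with 4775 ± 2211 per kb of full length, had 276948 ± 128209 on this scale. Nuclear sequence outside annotated transcripts was not searched, although reads had to map uniquely to the whole genome. A pair of reads can also be placed by either mate, so neither scale is exact. Smart-seq2 copies RNA from its poly(A) tail, and a level compared between genes also carries any difference in tails.

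**Figure D2:**
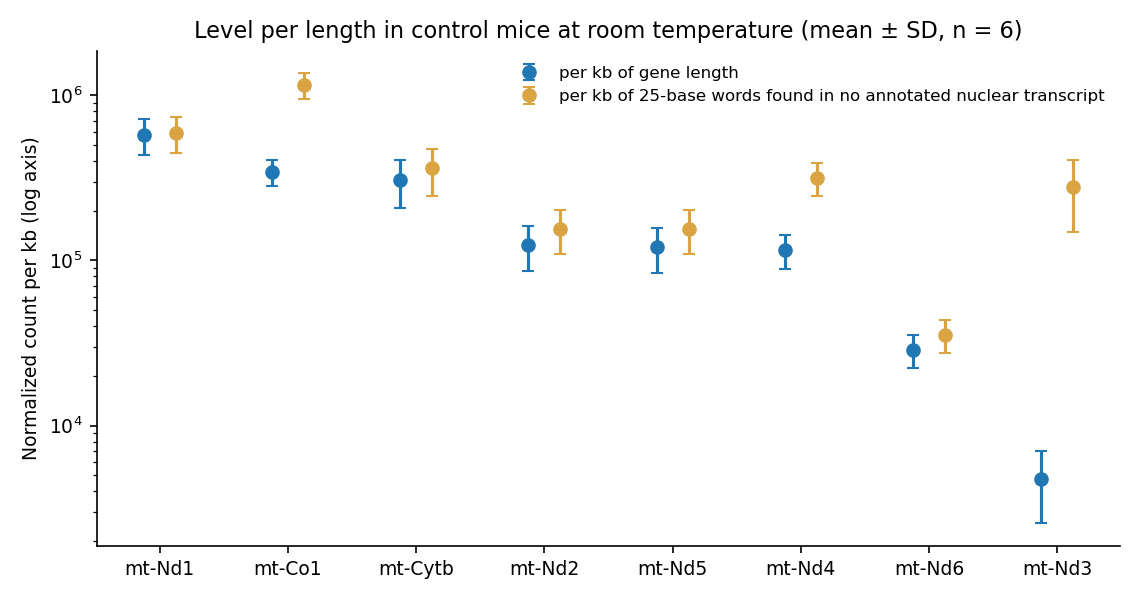
Normalized count per kb (log axis) of the 7 measured members and mt-Nd3 in control mice at RT, per kb of gene length (blue) and per kb of 25-base stretches found in no annotated nuclear transcript (yellow), as mean ± SD of 6 mice. mt-Co1, mt-Nd4 and mt-Nd3 differ most between the scales.

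Cold exposure of control mice addressed whether 6 h at 4 °C alters mitochondrial mRNA levels where the uniporter is intact. None of the 7 members passed an adjusted p of 0.05 in limma, while 46.0% of all 14651 genes did (22.3% higher and 23.7% lower), and none had groups that did not overlap, against 25.2% of all genes. By unadjusted p under 0.05, 2 of the 7 (28.6%) passed, beside 52.4% of all genes, and DESeq2 and edgeR called none. The median log2 fold change of the 7 was 0.12, beside -0.02 for all genes. All log2 fold changes are on the scale of log2(normalized count + 1).

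The complex I mRNAs mt-Nd1, mt-Nd5 and mt-Nd6 had the highest values of the 7. mt-Nd5 had normalized counts of 99407 (lowest), 237311 (median) and 279335 (highest) at RT, and of 315645, 282640, 257927, 290429 and 229177 at 4 °C. Of the 5 mice in the cold, 3 lay above every RT mouse. Its log2 fold change was 0.39 (SE 0.18, limma adjusted p = 0.0853).

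mt-Nd6 ran from 9826 through 15580 to 18128 at RT and had 19162, 17023, 14722, 21583 and 16538 at 4 °C, so only 2 cold mice were above the RT range (log2 fold change 0.28, SE 0.13, limma adjusted p = 0.0923). mt-Nd1 ran from 321896 through 554946 to 689073 at RT and had 787606, 711031, 598297, 708385 and 456908 at 4 °C. It differed by 0.26 (SE 0.18, limma adjusted p = 0.234), with 3 cold mice above all RT mice and 1 in the lower part of their range.

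The other members lay close to 0: mt-Nd2 at 0.12, mt-Cytb at 0.07, mt-Nd4 at -0.02 and mt-Co1 at -0.04, with limma adjusted p from 0.613 to 0.922. For mt-Co1 the counts at RT were 370835, 539923 and 647603 (lowest, median, highest), and those in the cold were 603398, 459641, 481788, 613781 and 419964, all inside the RT range. Without control RT replicate 2 the lowest RT count of mt-Co1 was 511960, and the cold mice at 459641, 481788 and 419964 lay below it. The 95% confidence interval of the mt-Co1 difference over all mice ran from -0.34 to 0.25.

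These control values rest heavily on single RT libraries. Without control RT replicate 2 the log2 fold changes were 0.17 for mt-Nd5, 0.17 for mt-Nd6 and 0.12 for mt-Nd1, and those of mt-Nd2, mt-Cytb, mt-Nd4 and mt-Co1 were -0.07, -0.15, -0.14 and -0.14. Without control RT replicate 1, which had high values, mt-Nd5 (0.47, limma adjusted p = 0.0416) and mt-Nd6 (0.34, limma adjusted p = 0.0459) passed, and without replicate 6 mt-Nd6 did (0.34, limma adjusted p = 0.0432). When libraries were scaled to their 75th percentile, the median of all genes in this comparison moved to -0.13 and 38.2% of called genes were higher, against 48.5% with the size factors, and the members moved down with it.

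**Figure D3:**
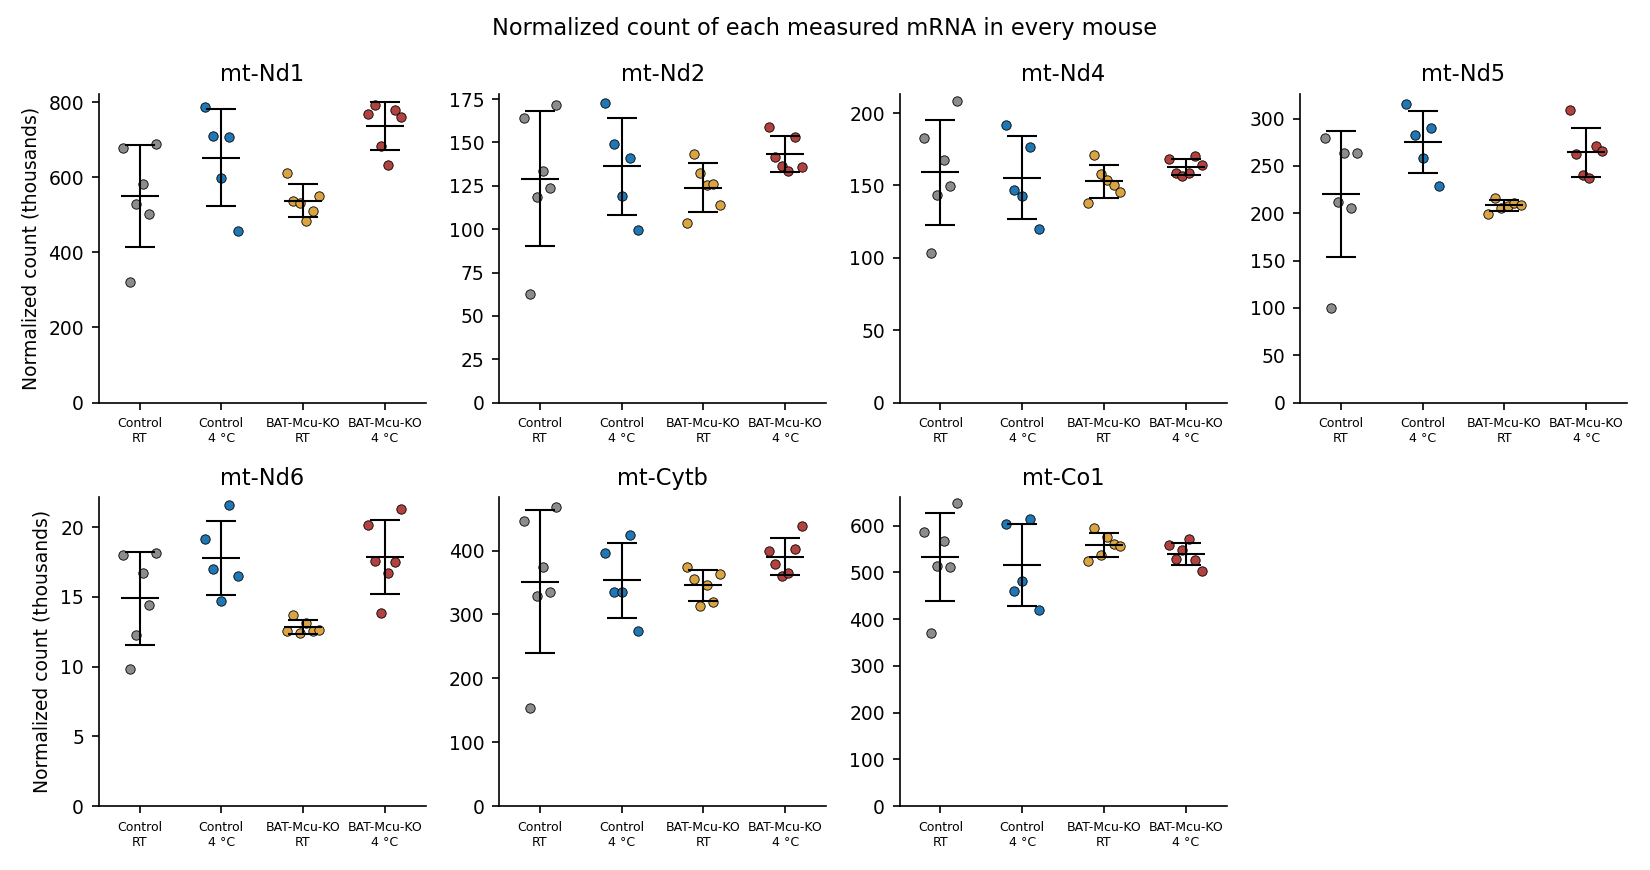
Normalized count of each of the 7 measured mRNAs in every mouse, 1 panel per gene, with group mean and SD. Control mice at RT are widely spread with 1 low and 2 high mice, and in the BAT-Mcu-KO mice the RT and 4 °C points of mt-Nd1, mt-Nd5 and mt-Nd6 do not overlap.

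The same exposure in BAT-Mcu-KO mice asked whether the response differs without the uniporter. Here mt-Nd1 and mt-Nd6 rose, which is 2 of the 7 members, beside 21.4% of all genes called higher, 21.9% called lower and 43.3% called in either direction. The groups did not overlap for 3 of the 7 (mt-Nd1, mt-Nd5 and mt-Nd6), beside 24.2% of all genes. The median log2 fold change of the 7 was 0.21, beside -0.02 for all genes, and no member fell.

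mt-Nd6 had normalized counts of 12381 (lowest), 12602 (median) and 13709 (highest) at RT and of 13853, 17567 and 21291 at 4 °C. The cold mice began just above the top of the RT range and spread over a wide interval. The log2 fold change was 0.47 (SE 0.13, limma adjusted p = 0.00461), a ratio of group means of 1.39. Since counting ignored the strand, this rise can lie in mt-Nd6 or in antisense RNA across it.

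mt-Nd1 ran from 482593 through 534158 to 611818 at RT and from 633034 through 764101 to 793561 at 4 °C. All 6 cold mice were above all 6 RT mice, by a ratio of group means of 1.37 (log2 fold change 0.45, SE 0.17, limma adjusted p = 0.0319). This call was close to the threshold: it was lost with 75th percentile scaling (adjusted p = 0.0631) and when BAT-Mcu-KO RT replicate 3, 4 or 5 or 4 °C replicate 1, 2, 5 or 6 was left out (limma adjusted p 0.0502 to 0.0642), while its log2 fold change stayed between 0.40 and 0.50 in all settings tried.

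mt-Nd5 was at 199408, 208390 and 216500 at RT and at 237493, 264260 and 308762 at 4 °C, again with no overlap. Its log2 fold change of 0.34 (SE 0.17) had a limma adjusted p of 0.119 with the spread estimated over all 4 groups. It was 0.0147 without control RT replicate 2, and 0.00331 when only the 2 BAT-Mcu-KO groups were fitted.

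mt-Nd2 (0.21), mt-Cytb (0.18) and mt-Nd4 (0.09) did not pass, nor did mt-Co1 (-0.05). mt-Co1 ran from 524879 through 559621 to 595168 at RT and from 503826 through 538637 to 570511 at 4 °C. The 95% confidence interval of its difference was -0.33 to 0.23.

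Markers of the tissue's cells were read in the same BAT-Mcu-KO mice. The summed normalized count of the 6 brown adipocyte markers lay between 177168 and 199085 at RT and between 269846 and 303731 in the cold, and Ucp1 alone averaged 56907 and 157765. The other 5 markers, summed without Ucp1, lay between 123106 and 146473 at RT and between 123537 and 137103 in the cold, so these groups overlapped. The sum of the 5 endothelial markers lay between 3451 and 4854 at RT and between 5212 and 7434 in the cold, and that of the 7 macrophage markers between 577 and 1022 and between 1045 and 1471. The sum of the 10 skeletal muscle markers lay between 21.4 and 61830 at RT and between 52.6 and 10982 in the cold. Their part in the rise of mt-Nd1 and mt-Nd6 was not tested.

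Genotype comparisons asked what loss of Mcu does to the mitochondrial mRNAs at either temperature. None of the 7 passed at RT or at 4 °C by limma, DESeq2 or edgeR, and none had an unadjusted p under 0.05 in limma. Of all genes, limma called 0.0478% at RT and 0.0751% at 4 °C. The genotypes overlapped for all 7 members, and did not for 0.218% of all genes at RT and 0.683% at 4 °C. At RT the log2 fold changes of BAT-Mcu-KO over control ran from -0.18 (mt-Nd6, 95% confidence interval -0.45 to 0.08) to 0.09 (mt-Co1, -0.20 to 0.37). Without control RT replicate 2 all 7 were negative at RT, from -0.01 for mt-Co1 to -0.30 for mt-Nd6. At 4 °C they ran from -0.05 (mt-Nd5, -0.43 to 0.32) to 0.19 (mt-Nd1, -0.17 to 0.56). Differences inside these intervals are not excluded.

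The genotypes differed in how far mice of a group lay apart at RT. The coefficient of variation of the members was 17.7% (mt-Co1) to 31.9% (mt-Cytb) in the 6 control mice and 2.72% (mt-Nd5) to 11.2% (mt-Nd2) in the 6 BAT-Mcu-KO mice. At 4 °C it was 12.0% (mt-Nd5) to 20.6% (mt-Nd2) in the 5 control mice and 3.54% (mt-Nd4) to 14.8% (mt-Nd6) in the 6 BAT-Mcu-KO mice. Without control RT replicate 2 the control values at RT were 9.997% (mt-Co1) to 16.9% (mt-Nd2), with mt-Cytb at 16.3% and mt-Nd5 at 13.9% (n = 5). For the rRNAs at RT it was 27.0% (mt-Rnr1) and 11.7% (mt-Rnr2) in the 6 control mice. In the 6 BAT-Mcu-KO mice it was 24.5% and 6.28%. No test was made of these spreads, and they were not set beside those of all genes.

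The interaction, the test of whether the cold response itself differed by genotype, passed for none of the 7 in limma, where no gene of the table passed (0%) and 878 had an unadjusted p under 0.05, none of them a member. DESeq2 called 28 genes in all and no member. The interaction values were 0.19 for mt-Nd1 (95% confidence interval -0.31 to 0.69), 0.19 for mt-Nd6 (-0.20 to 0.57) and -0.05 for mt-Nd5 (-0.57 to 0.47). The calls of mt-Nd1 and mt-Nd6 in BAT-Mcu-KO mice are therefore not shown to be particular to that genotype.

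**Figure D4:**
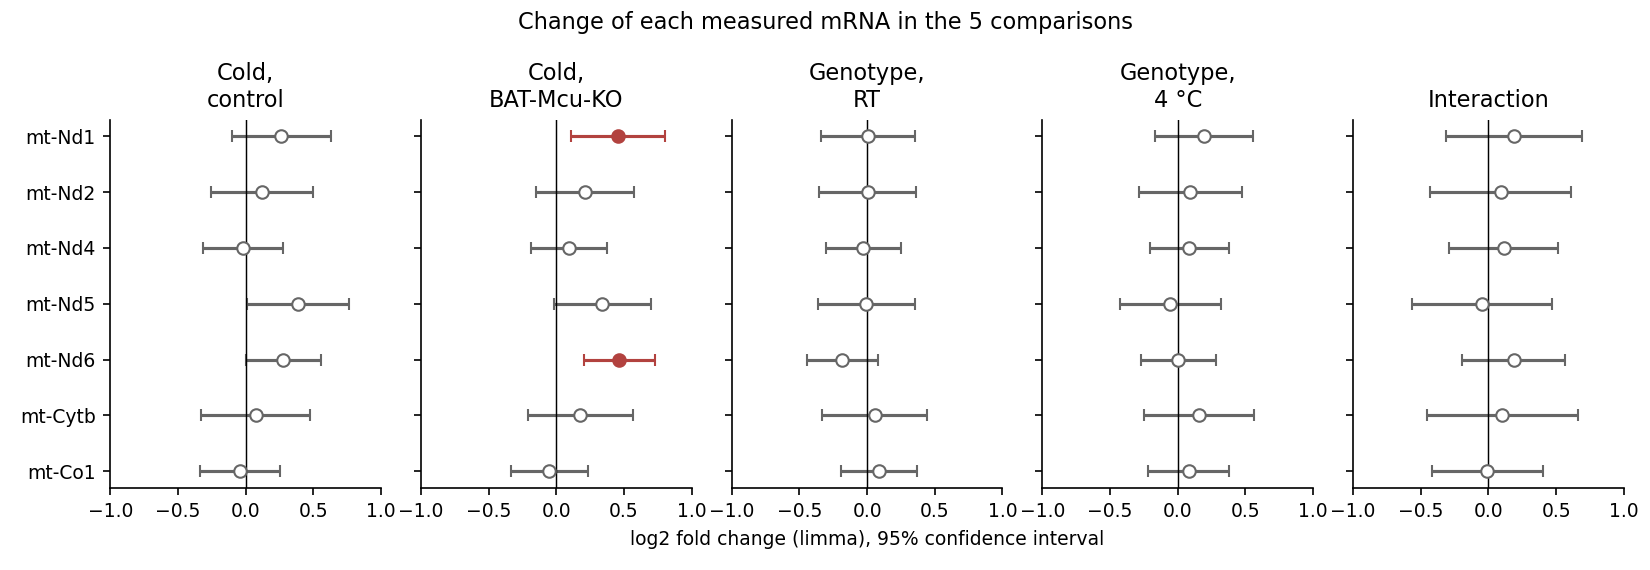
log2 fold change of each measured mRNA in the 5 comparisons, with 95% confidence intervals from limma; filled red points have an adjusted p under 0.05. The filled points are mt-Nd1 and mt-Nd6 by cold in BAT-Mcu-KO mice, at 0.45 and 0.47, and every other interval but those of mt-Nd5 and mt-Nd6 by cold in control mice includes 0.

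The balance among the 7 mRNAs was read from each member's percent of their summed reads, which does not depend on how libraries are scaled. These percentages were given no test. mt-Nd1 took 28.1% ± 0.604 in control mice at RT (n = 6) and 30.9% ± 2.09 at 4 °C (n = 5), and 27.7% ± 2.00 and 32.6% ± 1.65 in BAT-Mcu-KO mice (n = 6 each). mt-Co1 took 27.8% ± 2.79 and 24.5% ± 1.65 in control mice, and 28.8% ± 1.24 and 24.0% ± 1.90 in BAT-Mcu-KO mice. The percentage of mt-Nd1 was thus higher, and that of mt-Co1 lower, on average in the cold in both genotypes, with some overlap of the mice. With replicate 2 left out, mt-Co1 took 26.7% ± 1.17 and mt-Nd1 28.0% ± 0.602 in control mice at RT (n = 5).

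mt-Nd5 took 11.1% ± 1.26 and 13.2% ± 0.745 in control mice, and 10.7% ± 0.339 and 11.7% ± 0.641 in BAT-Mcu-KO mice, where all 6 cold mice were above all 6 at RT. mt-Nd4 took 8.20% ± 0.563 and 7.37% ± 0.251 in control mice, where all 5 cold mice were below all 6 at RT, and 7.88% ± 0.545 and 7.22% ± 0.201 in BAT-Mcu-KO mice, with overlap. The group means of mt-Nd2 lay between 6.35% and 6.49%, and those of mt-Cytb between 16.8% and 17.8%. mt-Cytb averaged 18.3% in control mice at RT when replicate 2 was left out. mt-Nd6 took 0.769% ± 0.0711 and 0.853% ± 0.112 in control mice and 0.661% ± 0.0181 and 0.791% ± 0.0943 in BAT-Mcu-KO mice, where 5 of 6 cold mice were above all 6 at RT.

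The ratio of mt-Nd1 to mt-Co1 reads sets the 2 members with the highest percentages side by side; it was chosen after its values were seen. In control mice at RT it ran from 0.868 through 1.03 to 1.15, and at 4 °C it was 1.31, 1.55, 1.24, 1.15 and 1.09. The lowest RT value there was 0.983 when replicate 2 was left out. In BAT-Mcu-KO mice it ran from 0.837 through 0.948 to 1.17 at RT and from 1.11 through 1.43 to 1.51 at 4 °C. In each genotype most cold mice were above the RT range and 1 or 2 lay within it. mt-Co1 shares 69.7% of its stretches with nuclear transcripts and mt-Nd1 none, so the ratio is one of countable reads.

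**Figure D5:**
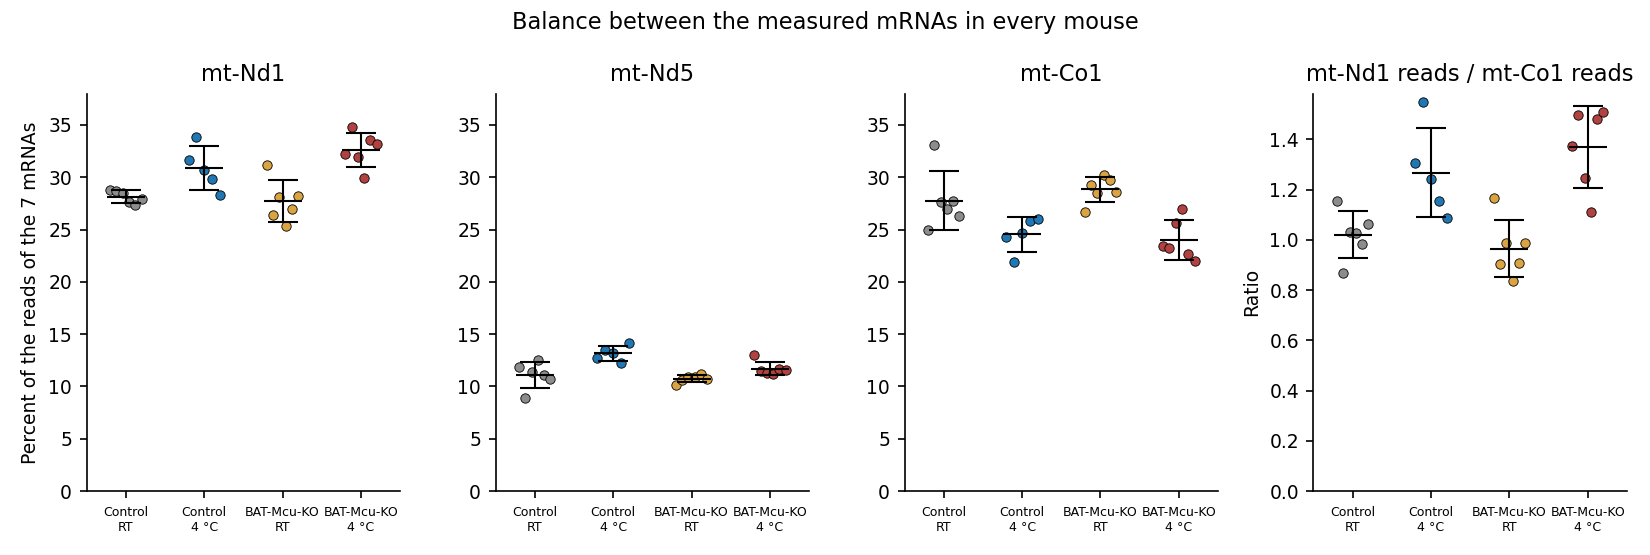
Percent of the reads of the 7 mRNAs taken by mt-Nd1, mt-Nd5 and mt-Co1, and the ratio of mt-Nd1 to mt-Co1 reads, for every mouse with group mean and SD. In BAT-Mcu-KO mice mt-Nd1 averages 27.7% at RT and 32.6% at 4 °C, and mt-Co1 28.8% and 24.0%.

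Other rows of the mitochondrial genome put the members in place. Of 13 tRNA rows, 6 rose with cold in control mice and the same 6 rose in BAT-Mcu-KO mice (limma), beside 22.3% and 21.4% of all genes called higher: mt-Tc, mt-Tq, mt-Tf, mt-Tt, mt-Ta and mt-Tv, the tRNAs for cysteine, glutamine, phenylalanine, threonine, alanine and valine. mt-Tc had the lowest adjusted p of them in both genotypes, with log2 fold changes of 1.09 (SE 0.24, limma adjusted p = 0.000464) and 1.69 (SE 0.22, limma adjusted p = 1.06e-06). All 13 together held 0.00821% to 0.0228% of a library of reads, and Smart-seq2 is not built to capture mature tRNAs. Reads of a tRNA and of an uncut transcript across it cannot be told apart. mt-Tc, mt-Tq and mt-Ta lie on the minus strand. Since counting ignored the strand, their reads cannot be told apart from RNA of the plus strand either. In BAT-Mcu-KO mice 3 of the 13 were called without RT replicate 4 or without 4 °C replicate 1. In each genotype 3 were called when rows averaging under 50 normalized counts were left out. mt-Nd3 (0.28 and 0.52) and the rRNAs mt-Rnr1 (0.29 and 0.20) and mt-Rnr2 (0.19 and -0.02) did not pass in either genotype. Of the 7 chromosome 1 pseudogenes, Gm10222, the copy of mt-Nd4l, fell in control mice (-0.96, SE 0.30, limma adjusted p = 0.0109), on mean normalized counts of 21.4 and 11.4.

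The nuclear genes that replicate, transcribe and process the mitochondrial genome formed a list of 39, all with a row. Of these, 16 rose and 4 fell by cold in control mice, and 13 rose and 3 fell in BAT-Mcu-KO mice, beside 46.0% and 43.3% of all genes called in either direction. Their median log2 fold changes were 0.14 and 0.17. The control median was 0.03 with 75th percentile scaling, 0.06 with scaling to total reads, 0.08 without control RT replicate 5 and 0.25 without control 4 °C replicate 4, and the BAT-Mcu-KO median was 0.11 with total reads. Among the 20 RNA processing genes, 12 rose and 1 fell in control mice, beside 22.3% of all genes called higher and 23.7% lower. In BAT-Mcu-KO mice 10 of them rose and none fell, beside 21.4% of all genes called higher and 21.9% lower. Trmt10c, a subunit of the mitochondrial RNase P that cuts tRNAs out of the primary transcript, rose by 1.06 (SE 0.10) and 1.36 (SE 0.09), with limma adjusted p of 1.79e-09 and 1.2e-11. Fastkd5, which is needed to process mRNA ends not flanked by tRNAs, rose by 1.64 and 1.81 from mean normalized counts of 56.2 and 44.9 at RT.

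Fastkd2, an RNA-binding protein of mitochondrial RNA granules, rose by 0.88 and 0.92, Tbrg4 (Fastkd4), which stabilises several mitochondrial mRNAs, by 0.68 and 0.48, and Mtpap, the mitochondrial poly(A) polymerase, by 0.63 and 0.51. Mterf3, a repressor of mitochondrial transcription, rose by 0.74 in each genotype. Of the replication genes, Peo1, the helicase Twinkle, rose by 0.81 and 0.69, and Polg2, the accessory subunit of the mitochondrial DNA polymerase, fell by 1.53 and 1.25. All of these were picked for the smallest p of the list by cold in control mice. Their passing there in limma, and the lack of overlap between RT and 4 °C control mice, are therefore no separate result. They also passed in limma in BAT-Mcu-KO mice, beside 43.3% of all genes. RT and 4 °C mice of that genotype did not overlap for them, beside 24.2% of all genes.

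The core transcription factors gave mixed calls. Polrmt, the mitochondrial RNA polymerase, rose in control mice (0.28, limma adjusted p = 0.0448) and had 0.18 (limma adjusted p = 0.183) in BAT-Mcu-KO mice. Tefm, the elongation factor, had 0.09 (limma adjusted p = 0.586) in control mice and rose in BAT-Mcu-KO mice (0.54, limma adjusted p = 0.000591). Lrpprc, which keeps mitochondrial mRNAs stable, rose in control mice (0.33, limma adjusted p = 0.0271) and had 0.17 (limma adjusted p = 0.262) in BAT-Mcu-KO mice. Its partner Slirp, and Tfam and Tfb2m, which start transcription, did not pass in either genotype. No gene of this list passed the interaction or either genotype comparison in limma.

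The nuclear-encoded subunits of complexes I, III, IV and V, partners of the members, formed a list of 73, all with a row. Of these, 34 fell and none rose in control mice, with a median log2 fold change of -0.25, and 3 fell and none rose in BAT-Mcu-KO mice, with a median of -0.07. Of all genes, 23.7% and 21.9% were called lower. No interaction passed in limma for any of them, and 1 had an unadjusted p under 0.05, beside 5.99% of all genes. The interaction value was positive for 71 of the 73, with a median of 0.19, beside 52% of all genes. This shift of the list as a whole was not tested. The control count rested on single libraries, in settings chosen after seeing the data: 11 fell without control RT replicate 1, 12 without control RT replicate 6, 19 without control 4 °C replicate 2 or replicate 4, and 22 without control 4 °C replicate 3. It was 8 when only the 2 control groups were fitted and 58 with 75th percentile scaling, and none rose in any of these. The BAT-Mcu-KO count was 10 lower and 1 higher when only the 2 BAT-Mcu-KO groups were fitted, 9 lower with scaling to total reads, 7 with total reads outside the mitochondrial rows and 6 with 75th percentile scaling. Ndufv3 of complex I fell in both genotypes (-0.64, SE 0.11, limma adjusted p = 4.58e-05, and -0.45, SE 0.11, limma adjusted p = 0.00143). Cox8b of complex IV fell in control mice (-0.48, limma adjusted p = 0.0183) and had -0.20 (limma adjusted p = 0.334) in BAT-Mcu-KO mice. The highest values in control mice, Atp5g1 (0.64) and Ndufa12 (0.09), did not pass. Atp5g1 had -0.85 in BAT-Mcu-KO mice, the lowest value of the 73 there. Of the 7 members beside them, 5 had positive values in control mice, or 3 without control RT replicate 2, and 6 in BAT-Mcu-KO mice, beside 48.7% and 48.4% of all genes.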

How the data were processed

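BAT RNA of 23 mice was measured by RNA-seq (Smart-seq2, paired reads of 25 nt). The authors aligned reads with STAR 2.4.0j to mm10 (GENCODE M7), counted uniquely mapped exonic reads irrespective of strand with HTSeq, dropped genes that did not reach 8 reads in 6 or more samples, and deposited counts divided by DESeq2 size factors, a signal per gene. Whole reads could be recovered from the steps of these values (100% whole within 0.01 read). A deposited table of the authors' own fold changes and p-values was not used. Symbols of 19 rows had been turned into dates. The main test was limma 3.58.1 with a trend on log2(normalized count + 1), 1 mean per group for the 4 groups and Benjamini-Hochberg adjustment over 14651 genes, called at 0.05; edgeR 4.0.16 and DESeq2 1.42.0 on the recovered reads were alternatives, and scripts were tested on simulated data. Mice are the replicates. No libraries agreed within sampling noise (chi-square per degree of freedom 8.59 to 61.8 over 55 pairs). Depth gave each share a 95% Wilson half-width of at most 0.0277 percentage points, for counting error only. Members and gene lists were chosen with earlier results of these data known. Named genes were the members, other mitochondrial rows and their nuclear copies, the 8 machinery genes with the smallest p by cold in control mice plus 6 core factors, and the nuclear subunits with the 2 highest and 2 lowest changes in the same comparison.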

Additional observations from a re-analysis of the deposited data

Results flagged for a closer look

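Within each group, each member's normalized count and percent of the members' reads, and the members' share of the library, were searched for a single mouse far from the others: 60 sets of values in all, of which 4 held one. About 1 in 20 sets would by chance. In control mice at RT, replicate 2 had the lowest percent of member reads for mt-Cytb (13.7%) and the highest for mt-Co1 (33.0%). In BAT-Mcu-KO mice at 4 °C, replicate 1 had the highest percent for mt-Nd5 (13.0%) and replicate 6 the highest for mt-Cytb (19.2%). The low normalized counts of control RT replicate 2 did not meet the criterion, since the other 5 mice of that group were widely spread too.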

How the results depend on the processing

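Of 1148 values of single members under other settings, 1069 kept their direction and their side of the threshold, 8 lost a call, 6 gained one and 65 changed sign. The number of members called by cold in control mice (0) was 1 with the replicate block and 0 to 2 with single mice left out. By cold in BAT-Mcu-KO mice (2) it was 1 with 75th percentile scaling and 1 to 3 with mice left out. Both genotype comparisons and the interaction kept 0 throughout, and other settings kept each count within 1.5 times. Replicate numbers are shared between groups but mark different mice. Deviations of same-numbered mice correlated at 0.121 on average (0.0416 to 0.218) between genotypes at 4 °C, and at -0.0355, -0.0291 and -0.0952 for genotype at RT, cold in control and cold in BAT-Mcu-KO mice, so the numbers were not taken as pairs. With the block, mt-Nd6 was called by cold in control mice (0.32, limma adjusted p = 0.0275), mt-Nd4 by cold in control mice was 0.0050 and mt-Nd6 by genotype at 4 °C was -0.034.

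Values near 0 changed sign with the scaling or the tool, and the cause was not tested. With the 75th percentile, mt-Cytb by cold in control mice was -0.035, mt-Nd1 and mt-Nd2 by genotype at RT were -0.024 and -0.025, and the interactions of mt-Nd5 and mt-Co1 were 0.0099 and 0.050. With total reads, the same mt-Cytb, mt-Nd1 and mt-Nd2 values were -0.0018, -0.018 and -0.019, mt-Nd6 by genotype at 4 °C was -0.0010 and the interaction of mt-Co1 was 0.010. By genotype at RT, DESeq2 and edgeR gave -0.034 and -0.035 for mt-Nd1, -0.058 and -0.059 for mt-Nd2 and -0.024 and -0.025 for mt-Cytb. Their interaction of mt-Nd5 was 0.025 and 0.024.

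With single mice left out, these values also crossed 0. By cold in control mice, mt-Nd2 ran from -0.072 to 0.23, mt-Nd4 from -0.14 to 0.070, mt-Cytb from -0.15 to 0.17 and mt-Co1 from -0.14 to 0.027. By genotype at RT, mt-Nd1 ran from -0.14 to 0.078, mt-Nd2 from -0.19 to 0.10, mt-Nd4 from -0.15 to 0.056, mt-Nd5 from -0.22 to 0.076, mt-Cytb from -0.17 to 0.16 and mt-Co1 from -0.012 to 0.15. By genotype at 4 °C, mt-Nd2 ran from -0.013 to 0.19, mt-Nd4 from -0.0048 to 0.16 and mt-Nd6 from -0.062 to 0.076. The interaction ran from -0.017 to 0.28 for mt-Nd2, from -0.13 to 0.17 for mt-Nd5 and from -0.078 to 0.092 for mt-Co1.

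The share of the library, as group means for control RT, control 4 °C, BAT-Mcu-KO RT and BAT-Mcu-KO 4 °C, was 31.2%, 33.0%, 32.3% and 33.3% when all mitochondrial rows were counted. It was 17.3%, 17.6%, 17.0% and 18.7% when the 10 most abundant other genes left the total. With mice left out it was 14.8% to 16.5%, 15.4% to 16.3%, 15.1% to 15.3% and 16.7% to 17.1%.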
